A study of Mus musculus with 8 samples.

Results

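The tubulin genes Tuba1a, Tuba1b, Tuba1c, Tubb2a, Tubb2b, Tubb3, Tubb4b, Tubb5, Tubb6 and Tubg1 were followed in cultured heart muscle cells with and without simvastatin. They were chosen by name, as 3 alpha, 6 beta and 1 gamma tubulin genes, with earlier results of these data known. They make up 10 of the 49315 genes in each count table. The cells were cardiomyocytes of C57/Bl6 mice at embryonic day 12.5, with both sexes pooled, and no genetic change is named for either group. The simvastatin group (SMV, 4 libraries) was kept in medium containing the drug at 10 µM and the control group (Ctrl, 4 libraries) in control medium. Simvastatin inhibits HMG-CoA reductase, the enzyme that makes mevalonate. The labels give neither the length of treatment nor whether the 4 libraries of a group were separate cultures. The p-values below then measure the spread among these libraries alone, which may be technical.

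Alpha and beta tubulin pair into the dimers from which microtubules are built, and gamma tubulin caps the minus end of a new microtubule and starts its growth. Vertebrates carry several genes for alpha and for beta tubulin whose proteins differ mainly in their acidic tails, where motor and binding proteins attach. In the heart, microtubules form the mitotic spindle of dividing cardiomyocytes and, in cells that no longer divide, a lattice along the contractile filaments. Cells also tune the stability of tubulin messages to the pool of free dimers, through the ribosome-bound factor TTC5.

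Libraries held 30474586 to 34993255 counts with simvastatin and 31457872 to 35215640 in controls. The 10 genes took 0.470% to 0.502% of all counts in the SMV libraries and 0.355% to 0.434% in the Ctrl libraries. File headers carry a set number, 1 for replicates 1 and 3 of either group and 2 for replicates 2 and 4, without saying what it marks. The 10 markers of heart muscle summed to between 66103 and 74834 CPM in SMV libraries and between 55885 and 72692 CPM in Ctrl libraries, where CPM stands for TMM-scaled counts per 1e6 reads counted. Most of that sum was Actc1, Myh6 and Tnnt2, which encode filament and motor proteins, each at 10353 CPM or more in every library. Myh7 rose. The cardiac transcription factor Nkx2-5 was low, at 3.97 to 29.7 CPM in SMV and 3.56 to 16.6 CPM in Ctrl libraries, and not called over all libraries, with a log2 fold change of 1.64 in set 1 (edgeR adjusted p = 0.123) and -1.73 in set 2 (edgeR adjusted p = 0.000918). In bulk RNA, a change in the number of cells of a type and a change in RNA per cell cannot be told apart.

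Promoter sequence from RefSeq (GRCm38.p6) was at hand for 7 of the 10 genes. The 4 windows with at most 5 bases inside the gene, as the count files define it, are shown. Those of Tuba1a, Tuba1b and Tubb3 are not. Each is the 250 bases before the RefSeq start, 5′ to 3′ on the gene's strand, with capitals marking CCAAT, the letters bound by NF-Y, on either strand (ATTGG when reversed), and TTTGAA, the cell cycle homology region read by the DREAM and MuvB complexes.
Tubb4b, chr2:25224703-25224952, minus strand: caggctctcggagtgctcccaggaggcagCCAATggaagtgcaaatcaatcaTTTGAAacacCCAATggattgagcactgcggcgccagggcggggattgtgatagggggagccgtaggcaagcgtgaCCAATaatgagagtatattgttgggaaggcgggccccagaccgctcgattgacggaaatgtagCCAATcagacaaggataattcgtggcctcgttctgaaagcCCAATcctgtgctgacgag
Tubb5, chr17:35838302-35838551, minus strand: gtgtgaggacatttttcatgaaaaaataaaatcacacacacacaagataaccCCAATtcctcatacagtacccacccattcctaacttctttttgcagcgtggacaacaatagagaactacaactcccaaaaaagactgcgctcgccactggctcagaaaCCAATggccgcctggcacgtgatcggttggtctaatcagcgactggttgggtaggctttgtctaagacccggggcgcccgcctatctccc
Tuba1c, chr15:99029641-99029890, plus strand: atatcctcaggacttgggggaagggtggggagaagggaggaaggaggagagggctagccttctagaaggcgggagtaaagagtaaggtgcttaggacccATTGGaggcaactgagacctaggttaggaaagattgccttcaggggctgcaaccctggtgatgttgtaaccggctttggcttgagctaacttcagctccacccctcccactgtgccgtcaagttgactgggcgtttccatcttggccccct
Tubb2a, chr13:34078009-34078258, minus strand: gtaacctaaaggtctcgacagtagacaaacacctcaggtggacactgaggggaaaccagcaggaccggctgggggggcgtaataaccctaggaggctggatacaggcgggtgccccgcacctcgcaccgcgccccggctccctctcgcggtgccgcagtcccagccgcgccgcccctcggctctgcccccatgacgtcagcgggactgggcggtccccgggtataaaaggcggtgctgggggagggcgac
The first 3 belong to genes whose transcripts fell with simvastatin, and the last to one that rose.

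In windows running 250 bases before to 50 bases after the start, Tubb4b held 5 copies of CCAAT and 1 of TTTGAA. Tubb5 held 2 copies of CCAAT, Tuba1a, Tuba1c and Tubb3 held 1 each, and Tuba1b and Tubb2a held 0. CCAAT was thus present in 5 of 7 tubulin windows, against 37.4% of 32851 windows genome-wide, and among these genes it was found on both sides of the split between rising and falling transcripts. TTTGAA was found in 1 of 7, against 17.9% of all windows. GGGCGG, the GC box of the Sp1 family, was in 6 of 7, against 35.7%. GGAATG, the TEAD site, was in the Tubb5 window alone (14.7% of all windows), TTTCCCGC, an E2F site, in 0 of 7 (1.07%), and the CArG box of SRF in 0 of 7 (1.63%). Both strands were searched, these matches describe the letters only, and windows were shown where at most 5 of the 250 bases lie inside the gene as the count files define it.

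With simvastatin the tubulin genes split: 4 of the 10 rose, 6 fell, and in each of the 10 the SMV and Ctrl ranges of CPM did not overlap. The risers were Tuba1a, Tubb2a, Tubb2b and Tubb3, the isotypes best known from neurons. Those that fell were Tuba1b, Tuba1c, Tubb4b, Tubb5, Tubb6 and Tubg1. All 10 passed the filter on low counts. Genome-wide, 17.4% of the 16126 genes tested were called, 7.79% rising and 9.61% falling (adjusted p under 0.05 in edgeR's quasi-likelihood test), and 23.1% had groups that did not overlap. The 10 genes were chosen with earlier results of these data known, so setting their counts beside these shares is no test. Of 7 other tubulin genes tested, 2 fell and 0 rose. The median log2 fold change of the 10 genes was -0.40, against 0.01 over all genes tested. All 4 rises were called in each of the 8 fits that left out 1 library, and 5 or 6 of the falls.

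**Figure D1:**
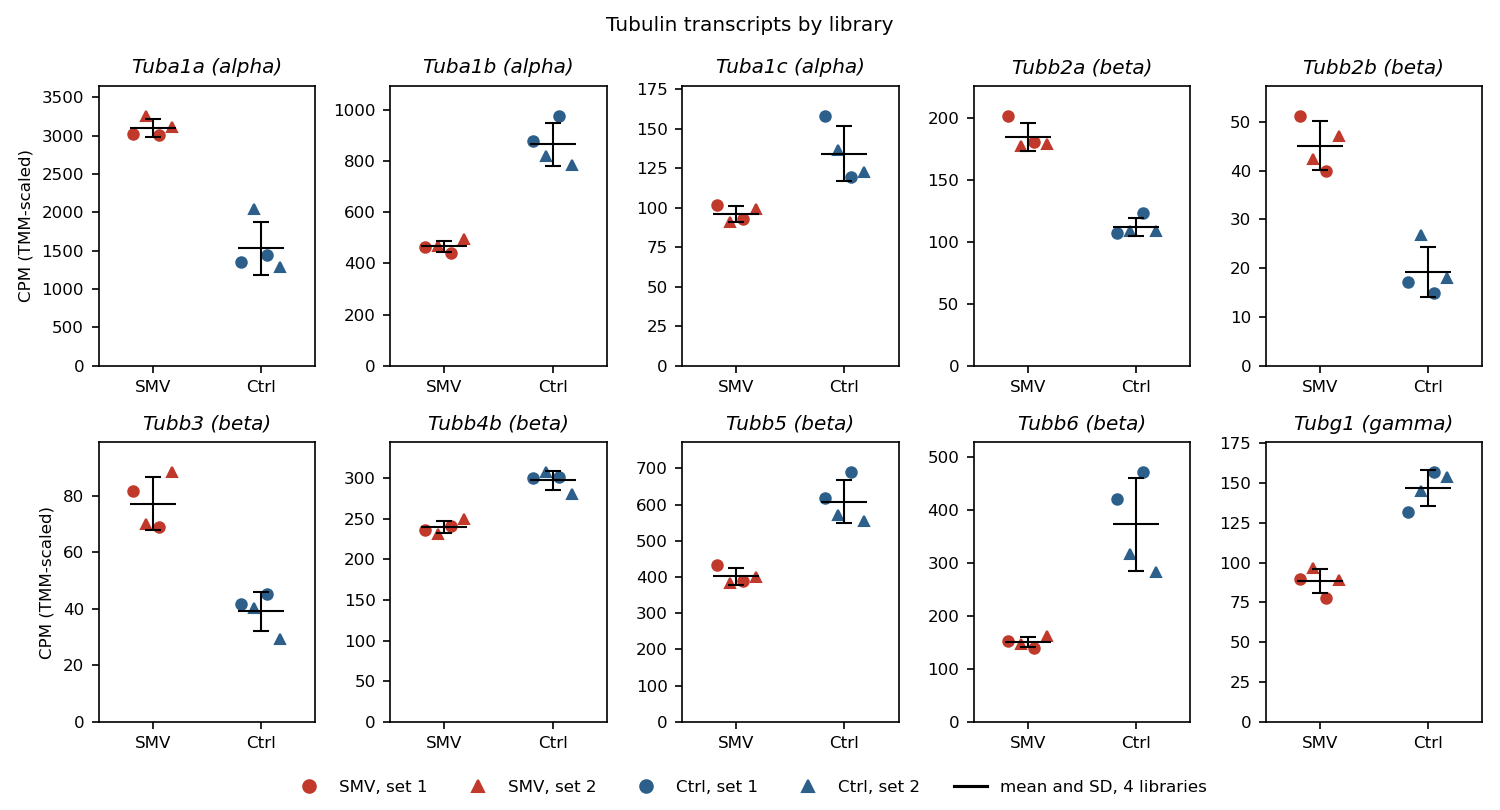
TMM-scaled CPM of each of the 10 tubulin genes (vertical axes from 0, one scale per gene) in the 4 SMV and 4 Ctrl libraries, with circles for set 1 and triangles for set 2; black bars give mean and SD. No gene has overlapping groups: Tuba1a, Tubb2a, Tubb2b and Tubb3 are higher in SMV and the other 6 are lower.

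Among alpha tubulins, Tuba1a rose while its neighbours Tuba1b and Tuba1c fell. Tuba1a (ENSMUSG00000072235, chromosome 15, 98949841 to 98953551, minus strand), whose human counterpart is mutated in lissencephaly, had 3017, 3259, 3010.0 and 3120.0 CPM in SMV replicates 1 to 4, against 1356, 2041, 1444 and 1281 CPM in Ctrl replicates 1 to 4. The highest control, replicate 2, stayed well below the lowest SMV library. The log2 fold change was 1.02 ± 0.14 (SE, edgeR adjusted p = 0.000718), or 1.19 without Ctrl replicate 2. Within sets it was 1.09 in set 1 and 0.94 in set 2.

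Tuba1b (ENSMUSG00000023004, chromosome 15, 98931425 to 98934565, minus strand), the alpha tubulin that most cell types use, lies 15275 bases from Tuba1a. It had 463, 466.5, 442 and 495.5 CPM in SMV replicates, against 880, 822, 977 and 785.5 CPM in Ctrl replicates. Every SMV library had less than any control. Its log2 fold change came to -0.89 ± 0.09 (SE, edgeR adjusted p = 0.000124), with -1.05 in set 1 and -0.74 in set 2. The ratio of Tuba1a to Tuba1b CPM was 6.30 to 6.98 across SMV libraries and 1.48 to 2.48 across Ctrl libraries, the highest control again being replicate 2.

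Tuba1c (ENSMUSG00000043091, chromosome 15, 99029891 to 99038105, plus strand), another widely used alpha isotype, had 102, 91.3, 92.7 and 99.1 CPM in SMV replicates, against 158, 137, 119.6 and 123 CPM in Ctrl replicates. The groups were apart, with replicate 1 highest in both. On the log2 scale it changed by -0.48 ± 0.11 (SE, edgeR adjusted p = 0.0103). It was -0.53 in set 1, where the call was lost (edgeR adjusted p = 0.12), and -0.45 in set 2 (edgeR adjusted p = 0.0142).

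The 3 alpha genes are close copies of each other, and the sources do not say how reads with several matches were counted. Of all distinct 100-base stretches of Tuba1a transcripts in GENCODE M21, 65.8% also occur in transcripts of another gene, with 65.2% for Tuba1b and 46% for Tuba1c. Counts from these 3 genes may therefore be divided differently among them or be lost. Summed over the 3 genes, SMV libraries held 3664 ± 125 CPM and Ctrl libraries 2531 ± 344 CPM (SD, n = 4 each), 1.45 times as much, and the groups did not overlap.

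Among beta tubulins, 3 rose and 3 fell. Tubb2a (ENSMUSG00000058672, chromosome 13, 34074301 to 34078008, minus strand), which is common in brain, had 202, 178, 181 and 179.6 CPM in SMV replicates, against 108, 109, 124 and 109 CPM in Ctrl replicates. One library in each group, SMV replicate 1 and Ctrl replicate 3, stood above 3 tightly spaced ones. With simvastatin the log2 change was 0.72 ± 0.09 (SE, edgeR adjusted p = 0.000342), with 0.71 in set 1 and 0.72 in set 2.

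Tubb2b (ENSMUSG00000045136, chromosome 13, 34127008 to 34130354, minus strand), a beta isotype needed for neuronal migration, lies 48999 bases from Tubb2a. It had 51.2, 42.3, 39.9 and 47.1 CPM in SMV replicates, against 17.3, 26.8, 15.0 and 17.9 CPM in Ctrl replicates. Ctrl replicate 2 was the highest control, as for Tuba1a. The log2 fold change was 1.23 ± 0.18 (SE, edgeR adjusted p = 0.000996), with 1.49 in set 1 and 1.0 in set 2. Tubb2a shares 36.9% of its 100-base stretches with other genes and Tubb2b 26%, mostly with each other. Their sum was 230.3 ± 15.6 CPM in SMV libraries and 132 ± 6.59 CPM in Ctrl libraries (SD, n = 4 each), with no overlap.

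Tubb3 (ENSMUSG00000062380, chromosome 8, 123411424 to 123422015, plus strand), the class III isotype used as a marker of neurons, had 81.8, 70.1, 68.9 and 88.4 CPM in SMV replicates, against 41.9, 40.2, 45.3 and 29.2 CPM in Ctrl replicates. The groups did not overlap, and replicate 4 was the highest SMV library and the lowest control. Its log2 fold change came to 0.98 ± 0.15 (SE, edgeR adjusted p = 0.00122), with 0.77 in set 1 and 1.19 in set 2. None of its 100-base stretches occurs in another gene's transcripts (0 of 1867).

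Since Tubb3 and its companions are also abundant in neurons, markers of neurons and neural crest were set beside them. Of 14 neuron markers 10 were tested, and Snap25, Syt1 and Th rose while 0 fell (edgeR; 0 also fell at an unadjusted p under 0.05). Over all genes tested, 7.79% rose. The more abundant Dbh (mean 13.2 CPM in SMV and 13.3 CPM in Ctrl libraries) and Gap43 (7.14 and 6.39 CPM) were not called. Elavl4, Nefl, Nefm, Stmn2 and Isl1 were not called either, and Elavl4 and Dbh had log2 fold changes of -0.24 and -0.01. The 14 summed to 27.3 to 41.3 CPM in SMV libraries and 24.1 to 30.7 CPM in Ctrl libraries, so the ranges overlapped. Snap25, a vesicle fusion protein, averaged 2.54 CPM in SMV and 1.1 CPM in Ctrl libraries, Syt1, a vesicle calcium sensor, 2.11 and 0.940 CPM, and Th, the first enzyme of catecholamine synthesis, 0.848 and 0.265 CPM. Th had 20 to 32 counts per SMV library and 5 to 13 per Ctrl library. In set 1 alone none of these 3 was called (edgeR adjusted p = 0.11, 0.0655 and 0.171). In set 2 alone Syt1 and Th were not called (edgeR adjusted p = 0.179 and 0.0673). Syt1 kept its call in 7 of 8 fits that left out a library. Prph, a filament protein of peripheral neurons, was too low to be tested, at 0.230 to 0.441 CPM in SMV and 0 to 0.178 CPM in Ctrl libraries, which did not overlap. Elavl3, an RNA-binding protein of neurons, was also too low to be tested and reached 0.259 CPM in SMV and 0.356 CPM in Ctrl libraries. Of 6 markers of Schwann cells and neural crest 3 were tested, and S100b rose, with 6.30 CPM in SMV and 0.598 CPM in Ctrl libraries. Those 6 summed to 26.9 to 30.3 CPM in SMV and 12.5 to 22.7 CPM in Ctrl libraries, with Foxd3 at 0 and Sox10 at most at 0.158 CPM. The part of these cell types in the tubulin changes was not tested.

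Tubb4b (ENSMUSG00000036752, chromosome 2, 25222160 to 25224702, minus strand), a ubiquitous beta isotype also found in cilia, changed least. It had 237, 231, 241.5 and 249 CPM in SMV replicates, against 299.9, 307, 301 and 280.3 CPM in Ctrl replicates. The groups were apart, each with little spread. On the log2 scale it changed by -0.31 ± 0.08 (SE, edgeR adjusted p = 0.0176), with -0.35 in set 1 and -0.29 in set 2. The call was lost without Ctrl replicate 2, SMV replicate 2 or SMV replicate 3 (edgeR adjusted p = 0.0556, 0.0634 and 0.0553), and in either set alone. Tubb4b overlaps 121 exonic bases of Fam166a on the opposite strand, which had 2.25 counts per library on average, and it shares 22% of its 100-base stretches with other genes, mostly its pseudogene Tubb4b-ps1.

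Tubb5 (ENSMUSG00000001525, chromosome 17, 35833921 to 35838306, minus strand), the class I isotype, had 434, 385, 389 and 399 CPM in SMV replicates, against 617, 571, 689 and 556 CPM in Ctrl replicates. All SMV libraries were below all controls, and the controls spread more widely. With simvastatin the log2 change was -0.60 ± 0.09 (SE, edgeR adjusted p = 0.00151), with -0.68 in set 1 and -0.52 in set 2. Its transcripts share 0 of 3415 stretches of 100 bases with other genes.

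Tubb6 (ENSMUSG00000001473, chromosome 18, 67390717 to 67402748, plus strand), the class V isotype, whose excess disrupts microtubules in cultured cells, had a log2 fold change of about the size of that of Tubb2b, in the other direction. It had 153, 147.5, 139 and 162 CPM in SMV replicates, against 421, 317, 471 and 283.5 CPM in Ctrl replicates. The 2 controls of set 1 were the higher ones, while the SMV libraries lay close together. The log2 fold change was -1.31 ± 0.15 (SE, edgeR adjusted p = 0.000279), with -1.63 in set 1 and -0.96 in set 2. The difference between sets, 0.66 for set 2 minus set 1, did not pass an edgeR test of the interaction of treatment and set (adjusted p = 0.137). Higher levels in the set 1 controls were not particular to Tubb6. Tuba1b, Tubb3 and Tubb5 had them too, Tubb2b had lower ones, and the other listed tubulin genes did not separate by set. The mitotic genes Cdk1, Aurka and Birc5 were higher there as well, while Mki67 did not separate. So were all epicardial markers listed except Msln. Among mesenchyme markers, Col1a1, Col1a2, Col3a1, Pdgfra, Dcn, Lum and Tcf21 were also higher in the set 1 controls. Postn did not separate by set. Among smooth muscle and pericyte markers, Acta2, Tagln, Pdgfrb and Rgs5 were higher there, Des and Cspg4 were lower, and Myh11 and Cnn1 did not separate. Des had 1335, 1667, 1230 and 1512 CPM in Ctrl replicates. Col1a2, a fibrillar collagen chain, had 308, 338, 321 and 383 CPM in SMV replicates, against 598, 272, 561 and 237 CPM in Ctrl replicates, and Tagln, an actin-binding protein of smooth muscle, had 10.1, 18.8, 11.9 and 23.9 CPM in SMV replicates, against 198, 137, 194 and 108 CPM in Ctrl replicates. The interaction was called for Col1a2, Col3a1, Tcf21 and Acta2 (edgeR adjusted p = 0.0351, 0.0277, 0.0351 and 0.0379) and not for Tagln (0.0601). The part of these cells in the change of Tubb6 was not tested.

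That interaction was called for 0 of the 10 tubulin genes, with adjusted p from 0.137 to 0.99, and for 0.0558% of all genes. Before adjustment, Tubb6 had an edgeR p of 0.00335 in it, and the next lowest was 0.0716 for Tuba1b. No other tool was run on the interaction.

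Tubg1 (ENSMUSG00000035198, chromosome 11, 101119938 to 101126419, plus strand) encodes the gamma tubulin that nucleates microtubules at centrosomes. It had 89.8, 96.6, 78.0 and 89.3 CPM in SMV replicates, against 132, 145, 157 and 154 CPM in Ctrl replicates. The groups did not overlap. Its log2 fold change came to -0.73 ± 0.10 (SE, edgeR adjusted p = 0.000647), with -0.80 in set 1 and -0.68 in set 2. It shares 3.23% of its 100-base stretches with its paralog Tubg2.

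**Figure D2:**
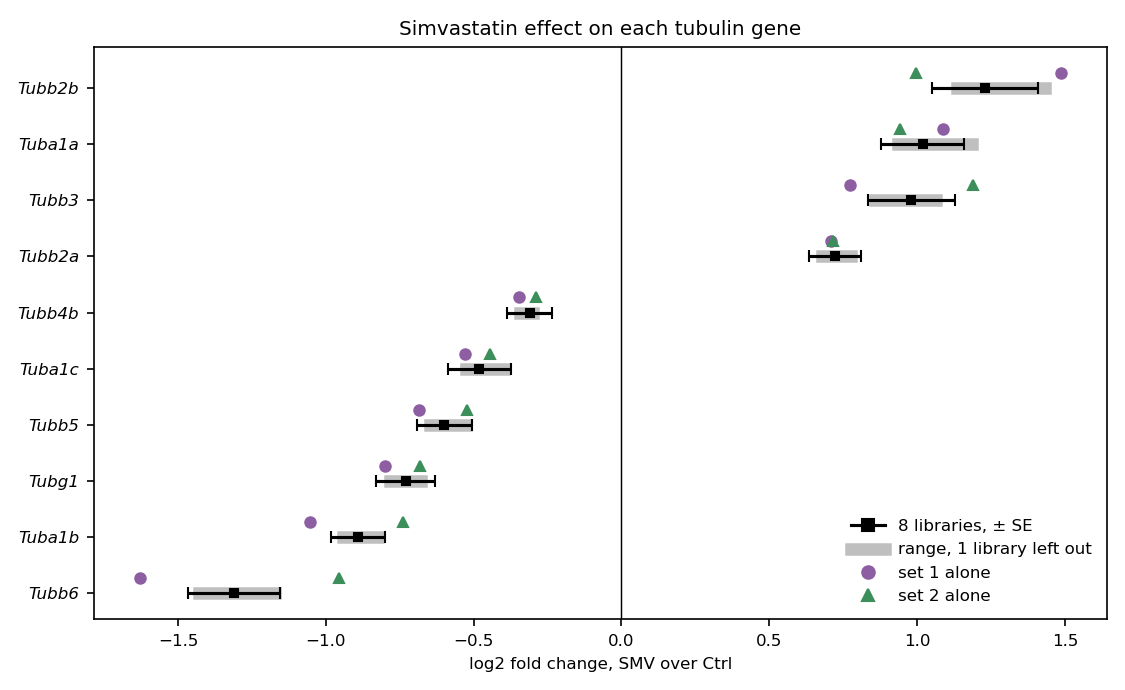
Log2 fold change of SMV over Ctrl (horizontal axis) for each tubulin gene: black squares with SE bars from all 8 libraries, grey bands for the range when 1 library is left out, purple circles for set 1 alone and green triangles for set 2 alone. Estimates run from -1.31 for Tubb6 to 1.23 for Tubb2b, and both sets lie on the same side of 0 for each gene.

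Levels of different genes were compared per length, as FPKM, the CPM divided by the exonic length in kilobases that the files give. Tuba1a was the most abundant tubulin transcript in both groups, at 1883 ± 70.5 FPKM in SMV and 929 ± 211 FPKM in Ctrl libraries (SD, n = 4 each). Tuba1b came next, at 249 ± 11.8 FPKM in SMV and 462 ± 44.6 FPKM in Ctrl libraries. Lost or divided reads of the copies would lower or shift these levels.

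In SMV libraries, Tubb5 with 121 FPKM, Tubb2a with 117 FPKM and Tubb4b with 115 FPKM followed, and neighbours in that order overlapped. Below them stood Tubb6 with 85.6 FPKM, then Tuba1c with 48.6 FPKM, Tubb3 with 41.4 FPKM and Tubg1 with 39.0 FPKM, the last 3 again overlapping with their neighbours, and Tubb2b with 23.5 FPKM was lowest. In Ctrl libraries the order after the 2 alpha genes was Tubb6 with 212 FPKM and Tubb5 with 183 FPKM, which overlapped, and then Tubb4b with 142 FPKM. Tubb2a with 70.9 FPKM, Tuba1c with 67.9 FPKM and Tubg1 with 64.7 FPKM overlapped in turn, and Tubb3 with 21.0 FPKM and Tubb2b with 10.0 FPKM came last. Tubb6 thus stood above Tubb4b and Tubb2a in controls and below Tubb5, Tubb4b and Tubb2a with simvastatin.

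Taking all 8 alpha genes of the annotation that were listed, Tuba1a made up 85.7 ± 0.573% of alpha FPKM in SMV libraries and 62.45 ± 5.16% in Ctrl libraries (SD, n = 4 each). The share of Tuba1b was 11.3 ± 0.45% in SMV and 31.7 ± 4.72% in Ctrl libraries. Among the 8 beta genes, Tubb6 held 16.8 ± 0.725% in SMV and 32.3 ± 3.97% in Ctrl libraries, and Tubb2a held 22.95 ± 0.911% in SMV and 10.97 ± 0.926% in Ctrl libraries. Tubb3 held 8.11 ± 0.686% in SMV and 3.21 ± 0.318% in Ctrl libraries. The share of Tubb4b was 21.2% to 23.65% in SMV and 19.5% to 24.0% in Ctrl libraries, which overlapped. These shares are descriptions and carry no test.

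The alpha and beta totals differed in direction. All alpha genes together reached 2196 ± 76.5 FPKM in SMV and 1477 ± 210 FPKM in Ctrl libraries, and all beta genes together 509 ± 23.6 FPKM in SMV and 650.3 ± 76.1 FPKM in Ctrl libraries (SD, n = 4 each). Neither pair of ranges overlapped: the lowest SMV alpha total was 2124 FPKM against a highest Ctrl total of 1767 FPKM, and the highest SMV beta total was 536 FPKM against a lowest Ctrl total of 567 FPKM. The beta groups were thus nearly touching.

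**Figure D3:**
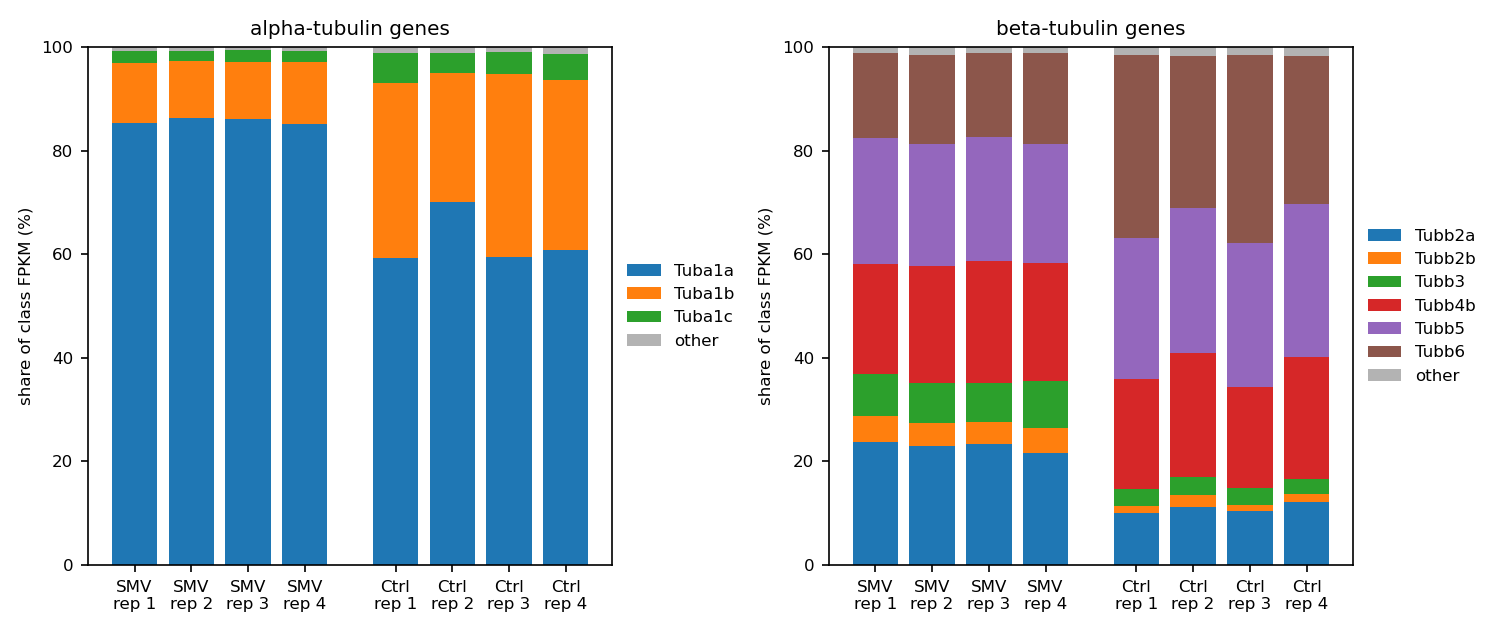
Share of each gene in the summed FPKM of its class (vertical axis, percent) in each SMV and Ctrl library, for 8 alpha genes (left) and 8 beta genes (right); grey is the sum of the genes outside the 10. Tuba1a takes 85.1% to 86.4% of alpha FPKM in SMV libraries and 59.3% to 70.1% in Ctrl libraries, and Tubb6 takes 16.1% to 17.7% and 28.5% to 36.15% of beta FPKM in the same groups.

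The tubulin genes outside the 10 showed no rise. Of 10 listed, 7 were tested, 2 fell and 0 rose (edgeR; 0 rose in DESeq2 and limma-voom, and 0 rose at an unadjusted p under 0.05). Over all genes tested, 7.79% rose and 9.61% fell in edgeR, the shares to set beside every list count given here. Tube1, the epsilon tubulin of centrioles, averaged 2.95 ± 0.357 CPM in SMV and 9.27 ± 1.10 CPM in Ctrl libraries (SD, n = 4 each; log2 fold change -1.65, edgeR adjusted p = 0.000112). Tubb4a, a beta isotype of brain, averaged 12.5 ± 0.87 CPM in SMV and 20.9 ± 2.28 CPM in Ctrl libraries (log2 fold change -0.75, edgeR adjusted p = 0.00234). In DESeq2 Tubg2 also fell, making 3. The brain isotype Tubb4a thus fell where Tubb2a, Tubb2b and Tubb3 rose. Tuba4a (log2 fold change -0.11), Tuba8 (-0.48), Tubb1 (-0.76), Tubg2 (-0.45) and Tubd1 (-0.24) were not called, with edgeR adjusted p from 0.0774 to 0.62, and Tuba4a shares 1379 exonic bases with Stk16 on the opposite strand. Tuba3a, Tuba3b and Tubal3 had at most 11 counts in any library.

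Of 12 folding cofactors and prefoldin subunits 3 rose and 0 fell (edgeR; 0 fell in DESeq2 and limma-voom, and 1 at an unadjusted p under 0.05), with a median log2 fold change of 0.04. The risers were cofactors that assemble the dimer: Tbcb with 0.43, Tbcd with 0.45 and Tbca with 0.38. Tbca binds free beta tubulin, and its call was lost without Ctrl replicate 2 or SMV replicate 4 (edgeR adjusted p up to 0.0605). Tbce, another cofactor, was not called (log2 fold change 0.31, edgeR adjusted p = 0.0918), and exons of Tbcb, Tbcd and Tbce overlap genes on the opposite strand. In set 1 alone 0 of the 12 were called, and in set 2 alone 3 rose and 1 fell.

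Of the 8 subunits of CCT, the chaperonin that folds actin and tubulin, 0 were called by edgeR, DESeq2 or limma-voom, and the unadjusted edgeR p was under 0.05 for 1. This was Cct7, with 487 ± 26.3 CPM in SMV and 560.2 ± 30.04 CPM in Ctrl libraries (log2 fold change -0.20, edgeR adjusted p = 0.126). Tcp1, Cct3 and Cct6a had log2 fold changes of -0.16, -0.14 and -0.11. Ttc5, which triggers decay of tubulin messages when free dimers are plentiful, averaged 60.2 ± 5.08 CPM in SMV and 55.6 ± 4.16 CPM in Ctrl libraries (log2 fold change 0.11, edgeR adjusted p = 0.517). Cnot1 (log2 fold change 0.38) and Cnot11 (0.06), subunits of the deadenylase that Ttc5 works with, were not called either (edgeR adjusted p = 0.238 and 0.923). In set 2 alone Cnot1 rose (log2 fold change 0.34, edgeR adjusted p = 0.0462). For these 3 genes DESeq2 and limma-voom called 0 over all libraries, and the unadjusted edgeR p was under 0.05 for 0 of them.

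Among 18 tested enzymes that modify tubulin, 1 rose in edgeR and in limma-voom and 2 in DESeq2, and 0 fell in any of these or at an unadjusted edgeR p under 0.05. Of all genes tested, 7.79% rose in edgeR. Ttl, which restores the last tyrosine of alpha tubulin, averaged 13.8 ± 0.633 CPM in SMV and 9.60 ± 1.79 CPM in Ctrl libraries (SD, n = 4 each), with a log2 fold change of 0.52 and an edgeR adjusted p of 0.0408. The call was kept in 1 of 8 fits that left out a library. Agtpbp1, which trims glutamates from the tail, had a log2 fold change of 0.47 and was called in DESeq2 (adjusted p = 0.0253) but not in edgeR (adjusted p = 0.0608). It was also called in edgeR without Ctrl replicate 2 (adjusted p = 0.0465) and with library totals alone (adjusted p = 0.0385). With a filter of 1 CPM in at least 4 libraries and with set as a term, edgeR called it too (adjusted p = 0.0485 and 0.0253). Ttll1, a polyglutamylase, had a log2 fold change of 0.29 (edgeR adjusted p = 0.101) and Atat1, the acetyltransferase of alpha tubulin, 0.24 (edgeR adjusted p = 0.114).

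Of 12 genes of the gamma-tubulin ring complex and its anchors, 1 rose and 2 fell, with a median of -0.11. Genome-wide, 17.4% of the genes tested were called in either direction. Cdk5rap2, which anchors the ring at centrosomes, averaged 10.2 ± 1.99 CPM in SMV and 18.0 ± 2.97 CPM in Ctrl libraries (log2 fold change -0.81, edgeR adjusted p = 0.00955). Mzt2, a small ring subunit, rose with 0.43 (edgeR adjusted p = 0.039), and Tubgcp2, a core ring subunit, fell with -0.29 (edgeR adjusted p = 0.0453). The call of Mzt2 was kept in 0 of 8 fits that left out a library and that of Tubgcp2 in 1 of 8. Tubgcp6 had a log2 fold change of -0.35 (edgeR adjusted p = 0.101).

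Microtubule-associated proteins moved both ways. Of 15 tested, 4 rose and 3 fell. Map1b, which stabilises microtubules in growing axons, averaged 312 ± 25.6 CPM in SMV and 146 ± 10.9 CPM in Ctrl libraries (log2 fold change 1.10, edgeR adjusted p = 5.25e-05). Map1a, its relative in mature neurons, averaged 35.3 ± 5.23 CPM in SMV and 12.9 ± 3.30 CPM in Ctrl libraries (log2 fold change 1.46, edgeR adjusted p = 0.000407), and overlaps Ppip5k1 over 272 bases. Map4, the main such protein of muscle and other non-neuronal tissue, and Map9 also rose, each with 0.61. In edgeR, Map9 lost its call without Ctrl replicate 1 or SMV replicate 3 (adjusted p = 0.0517 and 0.0665) and in either set alone, and Map4 lost it in set 1 alone (adjusted p = 0.0732). Tpx2 and Prc1, which organise spindle microtubules, fell with -1.68 and -1.64, and Mtus2 fell with -0.73. Of 10 plus-end proteins 0 were called by edgeR, DESeq2 or limma-voom, with 2 higher and 1 lower at an unadjusted p under 0.05 (edgeR). In edgeR, Ckap5, a microtubule polymerase, fell without Ctrl replicate 3 (adjusted p = 0.0193) and in set 2 alone (adjusted p = 0.0376), and Mapre2, an end-binding protein, rose with set as a term (adjusted p = 0.0267). In that list Dctn1 had 0.29, Ckap5 -0.34, Mapre2 0.31 and Slain2 0.31. Of 14 destabilising and severing proteins 5 fell and 0 rose in edgeR, with 0 rising in limma-voom, 1 in DESeq2 and 1 at an unadjusted edgeR p under 0.05. Stmn2, a neuronal relative of Stmn1 that also stands on the neuron list, had a log2 fold change of 1.23 (edgeR adjusted p = 0.0681). The falls were those of the kinesins Kif2c (-1.90), Kif18b (-1.80) and Kif18a (-1.67), Fignl1 (-1.82) and Stmn1 (-0.34), which binds free dimers. The call of Stmn1 was lost without SMV replicate 3 (edgeR adjusted p = 0.0539) and in either set alone. Exons of Tubgcp2, Prc1, Kif18a, Cct7, Cct6a, Tcp1 and Atat1 overlap genes on the opposite strand, and those of Cdk5rap2 a pseudogene on its own strand.

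Genes of G2 and mitosis fell in all 20 cases listed, with a median log2 fold change of -1.75. Cdk1 averaged 31.1 ± 3.03 CPM in SMV and 124 ± 18.3 CPM in Ctrl libraries, and Mki67, Aurka and Birc5 had log2 fold changes of -1.78, -2.02 and -1.74. For comparison, the tubulin genes that fell, Tubb6, Tuba1b, Tubg1, Tubb5, Tuba1c and Tubb4b, had log2 fold changes of -1.31, -0.89, -0.73, -0.60, -0.48 and -0.31. Summed over the 20 genes, the level was 450 to 594 CPM in SMV libraries and 1564 to 1918 CPM in Ctrl libraries, and its part in the tubulin changes was not tested. Smooth muscle and pericyte markers moved as well, with 5 of 8 falling and 1 rising and sums of 2404 to 2689 CPM in SMV and 4200.2 to 5052 CPM in Ctrl libraries, as did fibroblast markers, with 3 of 8 falling and sums of 1236 to 1440.1 CPM in SMV and 1145 to 2541 CPM in Ctrl libraries. The fibroblast markers that fell, Col3a1, Pdgfra and Tcf21, had log2 fold changes of -1.61, -2.21 and -2.62 in set 1 and -0.07, -0.20 and -0.17 in set 2, where none was called (edgeR adjusted p = 0.661, 0.376 and 0.58), and kept their call in 3, 4 and 4 of 8 fits that left out a library. Col1a2 was called in opposite directions, at -0.90 in set 1 (edgeR adjusted p = 0.00844) and 0.50 in set 2 (edgeR adjusted p = 0.0112). Among the smooth muscle markers, Pdgfrb kept its call in 5 of 8 such fits. Macrophage markers fell in 3 of 6 cases, with sums of 43.7 to 54.1 CPM in SMV and 61.2 to 70.8 CPM in Ctrl libraries, and erythroid markers rose in 2 of 4, with sums of 13.4 to 29.2 CPM in SMV and 6.48 to 10.1 CPM in Ctrl libraries. Epicardial markers (1 of 6 rising, 2 falling) and endothelial markers (2 of 8 rising, 2 falling) had sums that overlapped between the groups. In these lists the calls of Hbb-bt, Nfatc1, Aldh1a2 and Adgre1 were kept in 3, 1, 4 and 7 of 8 fits that left out a library. The part of these cell types was not tested either.

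**Figure D4:**
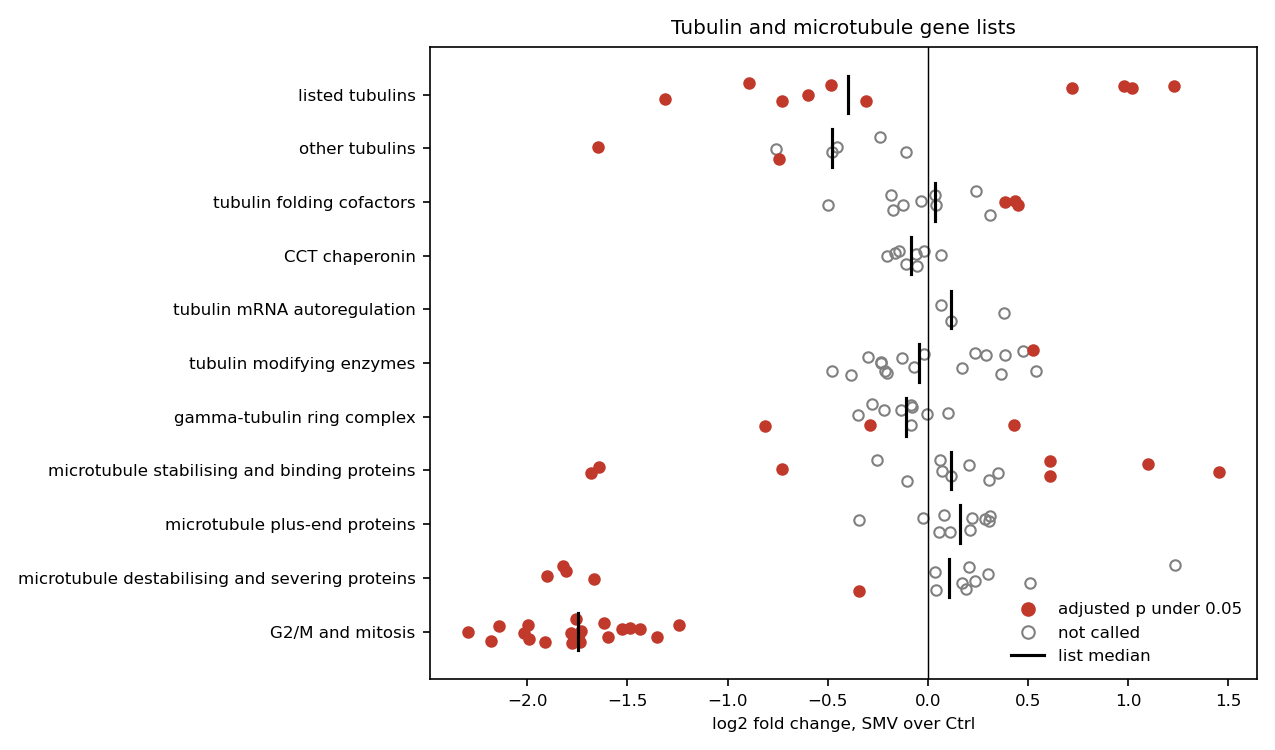
Log2 fold change of SMV over Ctrl (horizontal axis) for each tested gene of the tubulin and microtubule lists; filled red points passed an edgeR adjusted p under 0.05, open points did not, and black bars are list medians. The 10 listed tubulins lie on both sides of 0 and are all filled, while the CCT, plus-end and autoregulation lists hold open points only.

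Some other genes had profiles much like those of the tubulins, by Pearson's r of log2 CPM over the 8 libraries, a measure that mainly reflects the 2 groups. For Tuba1a, the most abundant gene, the 3 closest were Tapbp (r = 0.995), Gramd2 (r = 0.994) and Mvk, mevalonate kinase (r = 0.994). Mvk averaged 119 CPM in SMV and 45.8 CPM in Ctrl libraries. For Tubb6, the gene with the largest absolute log2 fold change over all 8 libraries, they were Cnn2, which encodes calponin 2 (r = 0.997), the predicted gene Gm14005 (r = 0.996) and Ccdc86 (r = 0.995). Cnn2 averaged 340.2 CPM in SMV and 612 CPM in Ctrl libraries.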

How the data were processed

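RNA of 8 libraries, 4 SMV and 4 Ctrl, grouped by sample title, was analysed from the gene counts the authors deposited. The submitters' processing notes name Trimmomatic 0.36, STAR 2.5.2b, featureCounts (Subread 1.5.2) and GRCm38, but no strand setting, annotation release or rule for reads with several matches. Symbols came from GENCODE M21, which matched 99.3% of identifiers, and coordinates are those of the files (1-based).

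Of 32927 genes with a count, 16126 passed filterByExpr and were tested with edgeR 4.0.16 (R 4.3.3; quasi-likelihood, TMM, treatment as the only term, two-sided, Benjamini-Hochberg over all genes tested, threshold 0.05). The step was checked on simulated data with 200 changed genes. No library was a copy of another within sampling noise. The alternatives were DESeq2 1.42.0 (Wald test or size factors), limma-voom (limma 3.58.1), library totals, 2 other filters, set as a term, each set alone, the replicate number as a block and each library left out. Members and lists were chosen with earlier results of these data known. Named genes were all members, all other tested tubulins, up to 4 genes with the smallest p per list, and the closest 3 profiles. Other genes that counts of 5 or fewer made up, and cell type markers, were named after their values were seen. Promoters came from RefSeq (GRCm38.p6), shared stretches from GENCODE M21 transcripts. FPKM was computed here from CPM and the files' gene lengths.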

Additional observations from a re-analysis of the deposited data

Results flagged for a closer look

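In 4 cases a value stood apart from the other 3 libraries of their group, by a gap that was large against the group's range by Dixon's ratio, among 104 groups of 4 examined; chance alone marks about 1 group in 20. Tubb2a was at 202 CPM in SMV replicate 1, against 178 to 181 CPM in the other SMV libraries, and at 124 CPM in Ctrl replicate 3, against 108 to 109 CPM in the other controls. Its log2 fold change was 0.68 without SMV replicate 1 and 0.78 without Ctrl replicate 3. Tubgcp2 was at 59.1 CPM in Ctrl replicate 1, against 65.0 to 65.8 CPM in the other controls. Map1a was at 17.8 CPM in Ctrl replicate 1, against 11.1 to 11.3 CPM in the other controls.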

How the results depend on the processing

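The 10 tubulin genes kept their direction in 180 of 180 refits and their call in 172. Tuba1c was not called in set 1 alone (log2 fold change -0.53). Tubb4b was not called with no filter beyond 1 count in total (-0.31), with the replicate number as a block (-0.31), in set 1 alone (-0.35) or in set 2 alone (-0.29), and leaving out 1 library gave -0.34 to -0.30. For both, fewer libraries (sets, omissions) or more genes tested (no filter) are part of those refits, apart from the replicate block. The block kept all 8 libraries and the same 16126 genes tested. The cause of the lost calls was not tested. The falls numbered 4 in set 1 alone and 5 in set 2 alone, and the rises 4 in each. Same-numbered SMV and Ctrl libraries deviated from their group means with correlations of -0.23 to 0.16, and 0 of 4 correlated best with their own number, so the block is given only here: it left 4 rises and 5 falls, and 2131 genes called in all against 2805. Set 1 alone called 1627 genes. Among 48 other named genes, 47 calls were lost and 10 gained over all refits, and only uncalled values changed sign: Ttc5 was at -0.040 in set 1, and Cnot11 at -0.19 in set 1 and between -0.13 and 0.31 with 1 library left out. Scaling by library totals moved the median of all genes to 0.0354. Counts were low for Tubb1, at 5 to 66 per SMV library and 35 to 87 per Ctrl library.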
